A study of Mus musculus with 12 samples.

Results

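The genes described here are 38 macrophage and myeloid genes, read in whole-tumour RNA from TRAMP-C2Re3 prostate tumours grown in mice with or without p62. They were taken from a list of 41 gene names. A gene was kept where the array table holds a probe set that is annotated to that symbol alone, and 38 of the 19937 genes with such a probe set qualified. Ly6c1 and Ly6c2, which encode near-identical monocyte surface proteins, share their probe sets and were left out by that rule, and Spp1, the gene of osteopontin, had no such probe set in the annotation used. Each of the 38 genes had 1 probe set, so that no choice between probe sets was needed.

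There were 12 tumours. In 6 of them the host was a p62 KO mouse and in the other 6 a wild-type mouse, all of C57BL6 background, and each tumour came from a different mouse. Every host received 50000 TRAMP-C2Re3 cells into the prostate, and tumours were taken after 60 days. TRAMP-C2Re3 is a mouse line of prostate carcinoma with p62 of its own. The injected cells are 1 line, the labels give no age, and the promoter or exon design of the p62 deletion is not given in the sources used here. The knockout concerns the host cells within a tumour, and macrophages are among them. Values are log2 intensities, on which a step of 1 is a doubling of signal.

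Macrophages and their monocyte precursors depend on the receptor Csf1r, its ligand Csf1 and the transcription factor Spi1, which is also called PU.1. Many of their activating receptors carry no signalling tail and pair instead with the adaptors Tyrobp (DAP12) or Fcer1g (the Fc receptor gamma chain), while Pirb and Fcgr2b carry inhibitory tails that restrain the same cells. In tumours, macrophages can take up states marked by the arginine-consuming enzyme Arg1, the mannose receptor Mrc1 or the lectin-like Chil3, often called alternative states, as against the nitric oxide synthase Nos2 of classically activated cells. The genes were sorted into 13 lineage genes, 11 activation genes, 11 alternative-state genes, the growth factor Csf1 and 2 inhibitory receptors.

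The promoters of 4 genes are shown because they represent the receptors on which the results below turn. Clec4d and Clec4e are neighbouring receptor genes whose levels were highest in the same tumours. Itgam and Pirb are the lineage gene and the inhibitory receptor with the smallest unadjusted p in their roles. Each sequence is the RefSeq window of 250 bases before to 50 bases after the gene start in build GRCm38.p6, written in the direction of the gene. Capitals mark matches on either strand to GAGGAA, a core of PU.1 sites, or to TTGCNNAA, a form of the C/EBP site.
Clec4d, chr6:123261857-123262156, plus strand: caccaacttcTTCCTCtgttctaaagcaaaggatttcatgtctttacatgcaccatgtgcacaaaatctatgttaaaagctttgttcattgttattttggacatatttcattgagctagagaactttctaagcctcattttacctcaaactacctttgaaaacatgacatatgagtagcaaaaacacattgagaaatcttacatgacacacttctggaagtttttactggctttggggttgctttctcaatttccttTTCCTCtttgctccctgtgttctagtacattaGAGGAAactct
Clec4e, chr6:123289822-123290121, minus strand: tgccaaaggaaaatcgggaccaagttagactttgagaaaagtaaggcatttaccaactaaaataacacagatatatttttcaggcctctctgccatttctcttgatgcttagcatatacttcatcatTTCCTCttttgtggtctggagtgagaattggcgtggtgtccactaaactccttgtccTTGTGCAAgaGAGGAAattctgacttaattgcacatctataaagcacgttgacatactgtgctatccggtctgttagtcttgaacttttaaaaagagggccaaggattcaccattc
Itgam, chr7:128062390-128062689, plus strand: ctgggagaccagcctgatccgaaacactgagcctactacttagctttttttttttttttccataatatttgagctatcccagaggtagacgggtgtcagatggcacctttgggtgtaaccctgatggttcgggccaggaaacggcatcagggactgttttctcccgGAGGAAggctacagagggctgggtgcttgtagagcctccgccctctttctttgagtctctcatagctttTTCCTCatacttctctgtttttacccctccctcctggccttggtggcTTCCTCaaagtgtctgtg
Pirb, chr7:3720333-3720632, minus strand: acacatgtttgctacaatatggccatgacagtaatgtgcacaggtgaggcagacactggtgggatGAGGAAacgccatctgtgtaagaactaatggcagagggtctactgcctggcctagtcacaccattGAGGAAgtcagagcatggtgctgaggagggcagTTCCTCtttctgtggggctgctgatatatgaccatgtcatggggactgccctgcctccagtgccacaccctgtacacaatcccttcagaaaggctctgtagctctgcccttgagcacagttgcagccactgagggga

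The window of Clec4d held 3 GAGGAA matches, that of Clec4e 2 with 1 TTGCNNAA match, and those of Itgam and Pirb 3 each. RefSeq windows were found for 28 of the 38 genes. GAGGAA occurred in at least 1 window of 15 of these 28 genes, or 53.6%, and in 31.3% of the 27025 genes with a window of this length. TTGCNNAA occurred in 6 of the 28, or 21.4%, against 12.2% of all genes. The AP-1 form TGANTCA stood at 14.3% against 8.97%. These are letter matches on both strands, overlaps between motifs allowed, and no binding was measured.

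Over the 28192 probe sets tested, the arrays differed in spread. KO hosts 2 and 3, with wild-type hosts 2 and 5, had interquartile ranges of 2.15 to 2.59, against 2.70 to 2.95 for the other 8 arrays. Differences that moved by over 1.5 times without KO hosts 2 and 3 are given in both ways, beside the gene or with the omissions of tumours below. Sqstm1, the gene of p62, averaged 8.73 ± 0.39 in KO hosts and 8.89 ± 0.23 in wild-type hosts (SD, n = 6 each), a difference of -0.16 (limma adjusted p = 0.994) that does not check the genotype, since the injected cells carry the gene. The prostate epithelial marker Epcam lay between 4.32 and 5.16 in KO hosts and between 4.38 and 5.05 in the wild-type hosts, where the lower quartiles of the arrays ran from 4.85 to 5.36. Krt8, a keratin of glandular epithelium, lay between 7.79 and 8.65 in KO hosts and between 7.76 and 8.30 in wild-type hosts.

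None of the 38 genes passed the test between host genotypes. Limma with Benjamini-Hochberg adjustment over all probe sets gave adjusted p of 0.994 to 0.996 for them, and 1 probe set of the whole table, or 0.00355%, passed. At an unadjusted p under 0.05 there was 1 of the 38, Pirb, or 2.63%, against 2.39% of all probe sets (1.28% higher and 1.11% lower in KO hosts). Differences were above 0 for 28 of the 38 genes, or 73.7%, where 57.2% of all probe sets had a difference above 0, and their median was 0.13 against 0.02 for all probe sets. Genes of 1 cell type vary together, so that these 28 are not 28 independent observations, and in whole-tumour RNA a change in the number of such cells cannot be told apart from a change in RNA per cell. Without wild-type host 2 the count above 0 was 23 of 38, or 60.5%, against 58% of all probe sets.

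**Figure D1:**
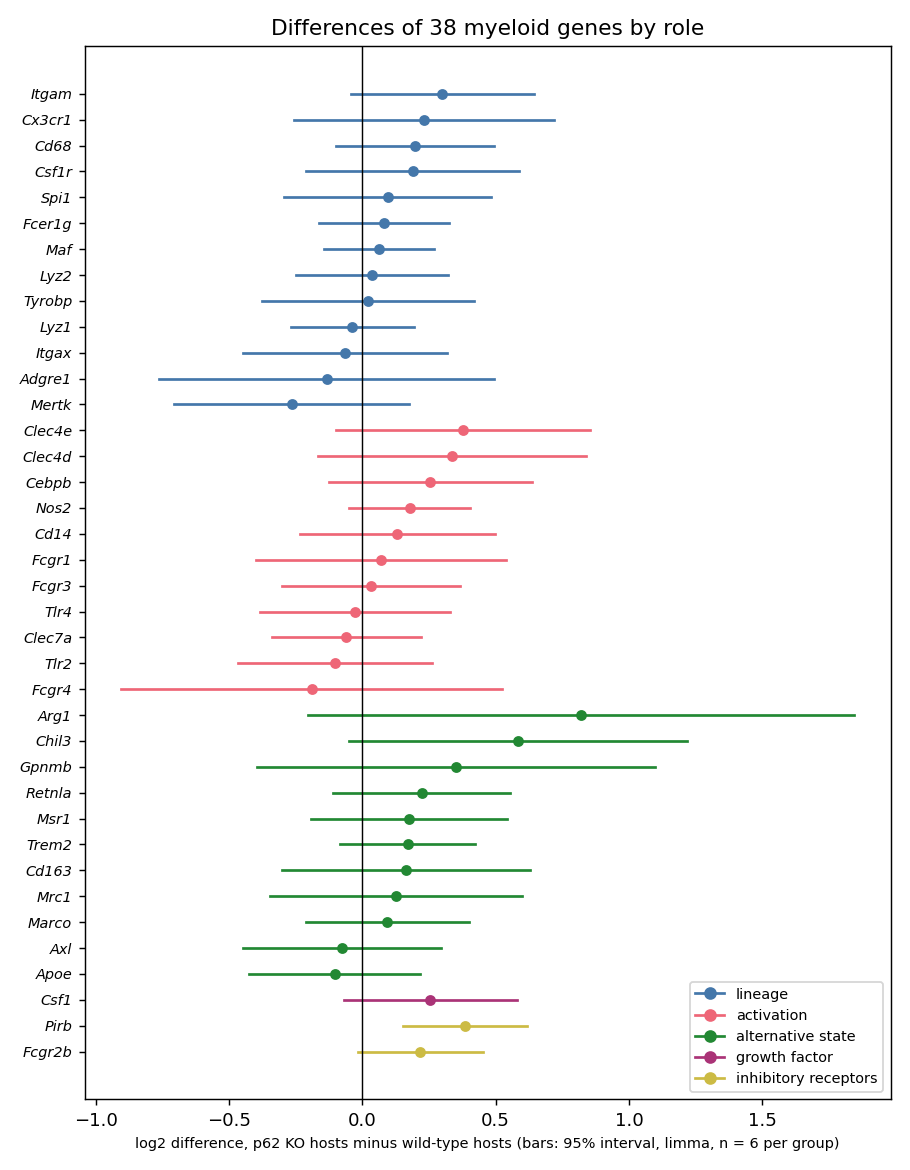
Log2 difference of each of 38 genes, p62 KO hosts minus wild-type hosts, on the horizontal axis, with the 95% interval of the limma fit (n = 6 per group) and colours for the roles. The interval of Pirb, from 0.15 to 0.62, is the one that leaves out 0, and those of the other 37 genes include it.

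Lineage genes showed no common direction between host genotypes, with 9 of 13 above 0 and a median difference of 0.06. Adgre1, which encodes the macrophage surface protein F4/80, ranged from 8.66 through a median of 10.10 to 10.22 in KO hosts and from 9.10 through 10.00 to 10.41 in wild-type hosts. The 2 groups overlapped, with KO hosts 2 and 3 and wild-type host 2 low. The difference was -0.13 (SE 0.29), and it was 0.27 (adjusted p = 0.707) without KO hosts 2 and 3 and 0.0021 without these and wild-type hosts 2 and 5.

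Csf1r ranged from 9.35 through a median of 9.63 to 9.97 in KO hosts and from 8.62 through 9.51 to 9.88 in wild-type hosts. The lowest value was that of wild-type host 2, which lay apart from the other 11 tumours, and without it the difference of 0.19 (SE 0.19) was 0.03. It was 0.28 without KO hosts 2 and 3 and 0.04 without all 4 tumours of narrow spread. Csf1, its ligand, which fibroblasts and other stromal cells also make, ranged from 8.40 through 8.84 to 9.07 in KO hosts and from 8.08 through 8.57 to 8.75 in wild-type hosts. KO hosts 4, 5 and 6 lay above every wild-type tumour, and the other 3 lay among them. Its difference was 0.26 (SE 0.15, unadjusted p = 0.114). The 9 fibroblast markers measured beside it had a median difference of -0.03, with 4 of 9 above 0.

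Itgam, the integrin chain CD11b of macrophages and neutrophils, ranged from 8.52 through a median of 8.98 to 9.30 in KO hosts and from 8.32 through 8.62 to 9.02 in wild-type hosts. KO hosts 4, 5 and 6 were again the 3 tumours above the highest wild-type tumour. The difference of 0.30 (SE 0.16) was 0.49 (SE 0.14, adjusted p = 0.611) without KO hosts 2 and 3, and stayed between 0.22 and 0.38 over the 12 omissions of a single tumour. Cd68, a lysosomal protein of macrophages, ranged from 10.22 through 10.62 to 11.05 in KO hosts and from 10.31 through 10.48 to 10.59 in wild-type hosts. Its SD was 0.34 in KO hosts and 0.10 in wild-type hosts, so that the wild-type tumours formed a narrow band with KO tumours on both sides of it. The difference was 0.20 (SE 0.14).

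Spi1 ranged from 6.76 through a median of 7.07 to 7.42 in KO hosts and from 6.16 through 7.05 to 7.32 in wild-type hosts, a difference of 0.09 (SE 0.18) that was -0.07 without wild-type host 2, the lowest tumour, 0.010 without KO hosts 2 and 3 and -0.16 without all 4 tumours of narrow spread. Tyrobp ranged from 9.41 through 10.26 to 10.34 in KO hosts and from 9.54 through 10.19 to 10.43 in wild-type hosts. Its difference was 0.02 (SE 0.19), and -0.01 when arrays were set to a common median. Fcer1g, the other adaptor, differed by 0.08 (SE 0.11), Maf, a transcription factor of resident macrophages, by 0.06, and the lysozyme genes Lyz2 and Lyz1 by 0.04 and -0.04. The lysozyme genes are close copies, and cross-hybridisation between them was not tested.
Cx3cr1, the fractalkine receptor, differed by 0.23, or by 0.03 without the same 4 tumours. Itgax, the integrin chain CD11c of dendritic cells and macrophages, differed by -0.07 and Mertk, a receptor for apoptotic cells, by -0.26 (SE 0.21). Mertk was lowest in KO hosts 2 and 3, at 8.22 and 8.27, and its difference was 0.06 (adjusted p = 0.88) without them.

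Activation genes were likewise split, with 7 of 11 above 0 and a median of 0.07. Cd14, the co-receptor for bacterial lipopolysaccharide, ranged from 6.92 through a median of 7.05 to 7.60 in KO hosts and from 6.75 through 6.95 to 7.54 in wild-type hosts, a difference of 0.13 (SE 0.17). Nos2 ranged from 5.98 through 6.24 to 6.46 in KO hosts and from 5.84 through 6.09 to 6.20 in wild-type hosts. KO hosts 2, 3 and 6 lay above all wild-type tumours, and the difference was 0.18 (SE 0.11), or 0.11 without KO hosts 2 and 3. The toll-like receptors Tlr2 and Tlr4 differed by -0.10 and -0.03, the beta-glucan receptor Clec7a by -0.06 and the transcription factor Cebpb, which is not restricted to myeloid cells, by 0.26 (SE 0.18). Cebpb was highest in KO hosts 3 and 2, and its difference was 0.0091 without them and 0.14 without KO host 3 alone.

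The activating Fc receptors, which bind antibody and signal through Fcer1g, differed by 0.07 for Fcgr1, 0.03 for Fcgr3 and -0.19 (SE 0.33) for Fcgr4. The sign of Fcgr3 turned to -0.0033 with arrays set to a common median. Fcgr4 was widely spread, from 6.33 to 8.24 in KO hosts and from 6.80 to 8.41 in wild-type hosts, with KO host 3 lowest and wild-type host 3 highest. Its difference was 0.08 (adjusted p = 0.945) without KO hosts 2 and 3.

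Clec4e, the receptor Mincle that senses mycobacterial glycolipid and dead cells and pairs with Fcer1g, ranged from 6.85 through a median of 7.07 to 8.20 in KO hosts and from 6.37 through 6.87 to 7.34 in wild-type hosts. KO host 6 stood alone at the top, and the other 5 KO tumours lay within the wild-type range. The difference of 0.38 (SE 0.22) was 0.19 without KO host 6. Clec4d, its neighbour and partner on the cell surface, ranged from 6.77 through 7.22 to 8.16 in KO hosts and from 6.55 through 6.92 to 7.71 in wild-type hosts, a difference of 0.34 (SE 0.23) that was 0.16 without KO host 6. Clec4d was added to the genes with full values after its values were seen.

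Of the alternative-state genes, 9 of 11 were above 0, with a median difference of 0.17. Without KO hosts 2 and 3 these were 8 of 11, beside 12 of 13 lineage genes and 9 of 11 activation genes, and the difference between roles was not tested. Arg1 was the most variable of the 38 genes, with a range of 3.08 over the 12 tumours. It ranged from 6.88 through a median of 7.75 to 9.36 in KO hosts and from 6.28 through 6.66 to 8.76 in wild-type hosts. All 6 KO tumours lay above wild-type hosts 1, 3, 4 and 6, while wild-type hosts 2 and 5 reached into the KO range. The difference was 0.82 (SE 0.48), or 1.76-fold, with a 95% interval of -0.20 to 1.84. It was 0.51 without KO host 6 and 1.17 (SE 0.40, adjusted p = 0.974) without wild-type host 2.

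Chil3 ranged from 4.42 through a median of 5.39 to 6.00 in KO hosts and from 4.31 through 4.57 to 5.89 in wild-type hosts. Of the wild-type tumours, host 2 was high and the other 5 lay at or under 4.90, and KO host 4 was the low KO tumour. The difference was 0.58 (SE 0.30, unadjusted p = 0.0681) and lay between 0.46 and 0.81 over the 12 single omissions. Part of this range, like all values of Retnla, which lay between 3.49 and 4.49, lies below the lower quartiles of the arrays, and detection calls were not used here. Retnla, a secreted resistin-like protein, and Marco, a scavenger receptor, differed by 0.22 (SE 0.16) and 0.09, and by -0.01 and -0.05 without KO hosts 2 and 3.

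Mrc1 ranged from 10.01 through a median of 10.80 to 11.57 in KO hosts and from 10.28 through 10.73 to 11.00 in wild-type hosts, a difference of 0.13 (SE 0.22). KO host 3 was the lowest tumour and KO hosts 5 and 6 the highest. Among the scavenger receptors, Msr1 differed by 0.17, from 0.06 without KO host 5 up to 0.27 without KO host 3. Cd163, which takes up haemoglobin, differed by 0.16, from 0.07 without KO host 5 up to 0.30 without wild-type host 6. Gpnmb, a glycoprotein of lipid-laden macrophages and of other cells, differed by 0.35 (SE 0.35), from 0.13 without wild-type host 3 up to 0.58 without KO host 2. Single tumours thus moved each of these 3 differences by over 1.5 times. Trem2, the lipid receptor that signals through Tyrobp, differed by 0.17 (SE 0.12), or by 0.03 without KO hosts 2 and 3. The lipid carrier Apoe differed by -0.10 and the receptor kinase Axl by -0.08. Apoe and Axl are also made by cells other than macrophages. Axl was 0.16 (adjusted p = 0.69) without KO hosts 2 and 3.

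The inhibitory receptors were both above 0. Pirb, a paired immunoglobulin-like receptor that binds MHC class I, ranged from 6.65 through a median of 6.99 to 7.05 in KO hosts and from 6.26 through 6.53 to 6.86 in wild-type hosts. KO hosts 1, 2, 5 and 6 lay above all wild-type tumours, and wild-type host 4 lay above KO hosts 3 and 4. The difference was 0.39 (SE 0.11), or 1.31-fold, with an unadjusted p of 0.0031 that did not pass over the table (limma adjusted p = 0.994). It stayed between 0.33 and 0.45 over the 12 single omissions and was 0.42 (adjusted p = 0.602) without KO hosts 2 and 3. Other Pir genes resemble Pirb, and cross-hybridisation with them was not tested. Fcgr2b, the inhibitory antibody receptor of macrophages and B cells, ranged from 7.98 through 8.30 to 8.53 in KO hosts and from 7.95 through 8.06 to 8.38 in wild-type hosts, a difference of 0.22 (SE 0.11, unadjusted p = 0.0661). None of the 38 genes had groups without overlap, where 0.0709% of all probe sets had every KO tumour above and 0.0745% every KO tumour below the wild-type tumours.

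**Figure D2:**
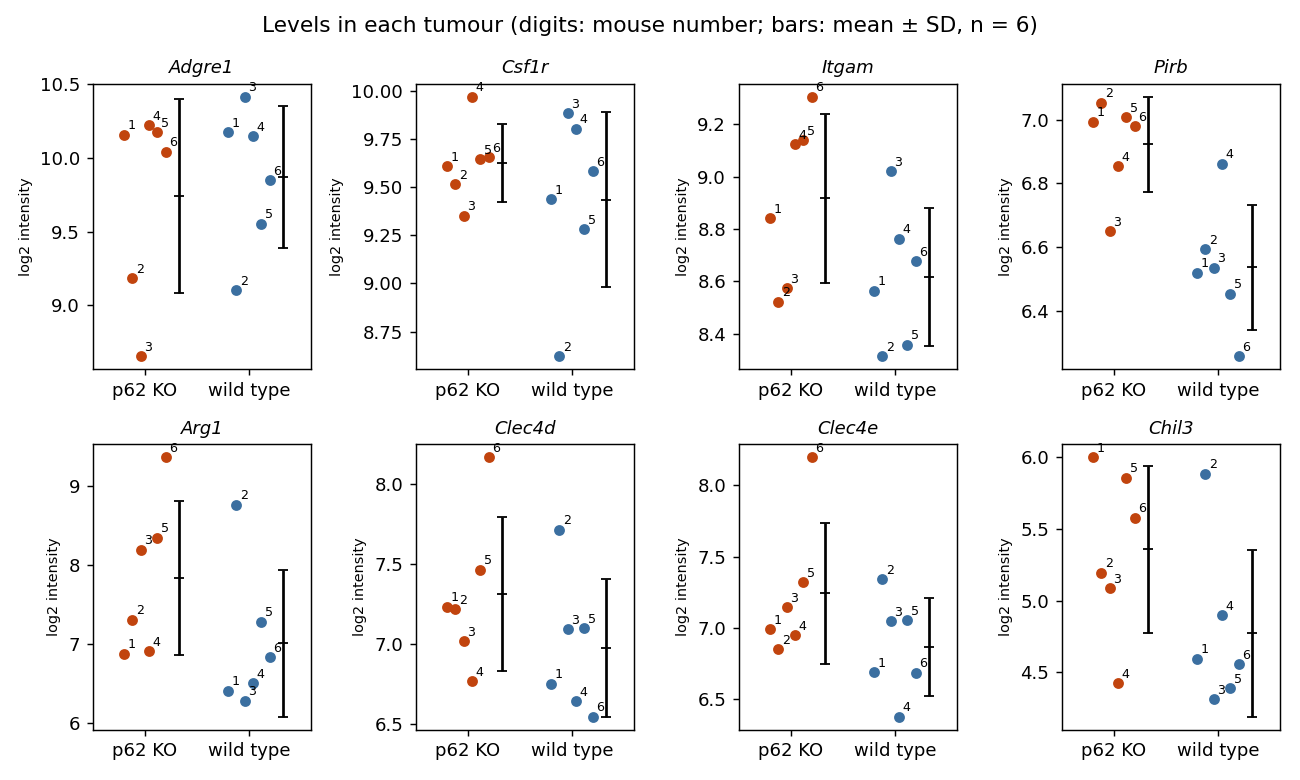
Log2 intensity of 8 genes in each tumour, p62 KO hosts on the left and wild-type hosts on the right of each panel, with the mouse number beside each point and mean ± SD (n = 6) as bars; the vertical axes start at different levels. In Adgre1 the low points are KO hosts 2 and 3 and wild-type host 2, whereas in Arg1, Clec4d and Clec4e wild-type host 2 is the highest of its group.

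Several of these genes are shared with neutrophils, among them Itgam, Clec4d, Clec4e, Pirb and Cd14. The 14 neutrophil markers had a median difference of 0.14 with 11 above 0, and their mean level lay between 5.30 and 6.00 in KO hosts and between 5.24 and 5.68 in wild-type hosts. S100a9, a neutrophil calcium-binding protein, differed by 0.58 (SE 0.18) and Ly6g, the defining neutrophil surface marker, by 0.44 (SE 0.19), neither passing (adjusted p = 0.994 each). Ly6g lay between 4.10 and 5.40 over the tumours, at the low end of the arrays. The neutrophil level was highest in KO hosts 2 and 3, at 6.00 and 5.96, and it was 5.59 in KO host 6 and 5.39 in wild-type host 2, the highest tumours in Clec4d and Clec4e. Single neutrophil-linked genes were high in KO host 6, where Trem1 stood at 6.18, its highest value, and S100a9 at 7.14. The part of neutrophils in the differences of Itgam, Clec4d, Clec4e, Pirb and Cd14 was not tested. The 5 B cell markers measured had a median difference of 0.11, and all 5 were above 0, where 57.2% of all probe sets were. Among them, Cd79a differed by 0.63 (SE 0.13, limma adjusted p = 0.994) and lay between 4.24 and 5.24, at the low end of the arrays. The part of B cells in the differences of Fcgr2b and Pirb was not tested.

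Across tumours, lineage genes were lowest as a group in 2 tumours. Activation genes were also low in these 2 tumours, while alternative-state genes were not. For each gene, the mean over the 12 tumours was taken off, and the median over the genes of a role was read in each tumour. Lineage genes were lowest in wild-type host 2, at -0.46, and KO host 3, at -0.23, and highest in wild-type host 4, at 0.26, and KO host 4, at 0.22. Activation genes were also lowest in wild-type host 2, at -0.30. They stood at -0.24 in wild-type host 6 and at -0.12 in KO host 3. Of the 13 lineage genes, 6 had their lowest value of all tumours in wild-type host 2 and 5 in KO host 3, and 3 had these as their 2 lowest tumours. Over all 28192 probe sets, 1547 were lowest in wild-type host 2 and 4757 in KO host 3. The medians over all tested probe sets were 0.0058 and 0.11 in these 2 tumours. The median level of all probe sets was 6.28, against 9.02 for lineage genes. Those medians thus do not show whether brighter probe sets were low there. KO host 3 had the highest lower quartile of the arrays, at 5.357, and the lowest upper quartile, at 7.505. Wild-type host 2 and KO host 3 were the 2 lowest tumours in 9 of the 38 genes, namely Adgre1, Tyrobp, Fcer1g, Tlr2, Tlr4, Fcgr1, Fcgr3, Fcgr4 and Mrc1, and in 2.68% of all probe sets. Of these genes, Tlr2, Tlr4, Fcgr1, Fcgr3 and Fcgr4 are activation genes. Activation genes, with a median level of 7.20, and alternative-state genes, with 7.42, were dimmer than lineage genes. Among the alternative-state genes, KO host 3 was lowest in Mrc1 and second lowest in Msr1 and Axl, which average 10.80, 9.16 and 9.06. It was highest in Marco and second highest in Retnla and Trem2, which average 5.25, 3.72 and 7.05. Cd163, with a mean of 6.59, was low there, at 6.21. The part of signal level in the contrast between roles in these 2 tumours was not tested.

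Further macrophage genes and endothelial markers were low in both of these tumours, and fibroblast markers in KO host 3. The 25 further macrophage genes measured beside the 38 stood at a median of -0.48 in KO host 3 and -0.41 in wild-type host 2. Not all of them were low in both. The complement genes C1qa and C1qb were lowest in wild-type host 2, at 7.46 and 8.78. In KO host 3 they were 8.13 and 9.07, near their means of 8.14 and 9.19. The 8 endothelial markers stood at -0.59 in KO host 3 and -0.50 in wild-type host 2, and the 9 fibroblast markers at -0.52 in KO host 3 and 0.0096 in wild-type host 2. Other marker lists ran the opposite way in KO host 3, where epithelial markers stood at 0.37, B cell markers at 0.36 and neutrophil markers at 0.35, each the highest of the 12 tumours. In KO host 2, also of narrow spread, these lists stood at 0.30, 0.20 and 0.31. Their median levels were 5.83, 5.67 and 5.43. Those of the further macrophage, fibroblast and endothelial lists, low in KO host 3, were 8.85, 9.20 and 7.08. In wild-type host 2, T and NK cell markers stood at -0.31. The part of the narrow array spread and of other cell types in this pattern was not tested.

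Alternative-state genes were highest in KO hosts 5 and 6, at 0.48 and 0.47, and lowest in wild-type host 3, at -0.31, where lineage genes stood at 0.22. Wild-type host 2, the lowest tumour in lineage genes, was the second highest in Arg1, at 8.76, in Chil3, at 5.89, and in Gpnmb, at 8.53. Arg1, Clec4d and Clec4e had the same 3 highest tumours in the same order, KO host 6, wild-type host 2 and KO host 5. These 3 tumours were the highest 3 in 124 of all probe sets, or 0.44%, and in 3 of the 38 genes. This set of tumours was picked after the values were seen, so that the count is a description. Mrc1, another alternative-state gene, was high in KO hosts 5 and 6, at 11.57 and 11.28, and low in wild-type host 2, at 10.28. Of the 11 genes of this role, 72.7% were above their mean in KO host 5, 63.6% in KO host 6 and 36.4% in wild-type host 2. Over all probe sets these shares were 42.1%, 44.2% and 51.5%. Many genes of this role were thus high in KO hosts 5 and 6, and fewer in wild-type host 2.

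**Figure D3:**
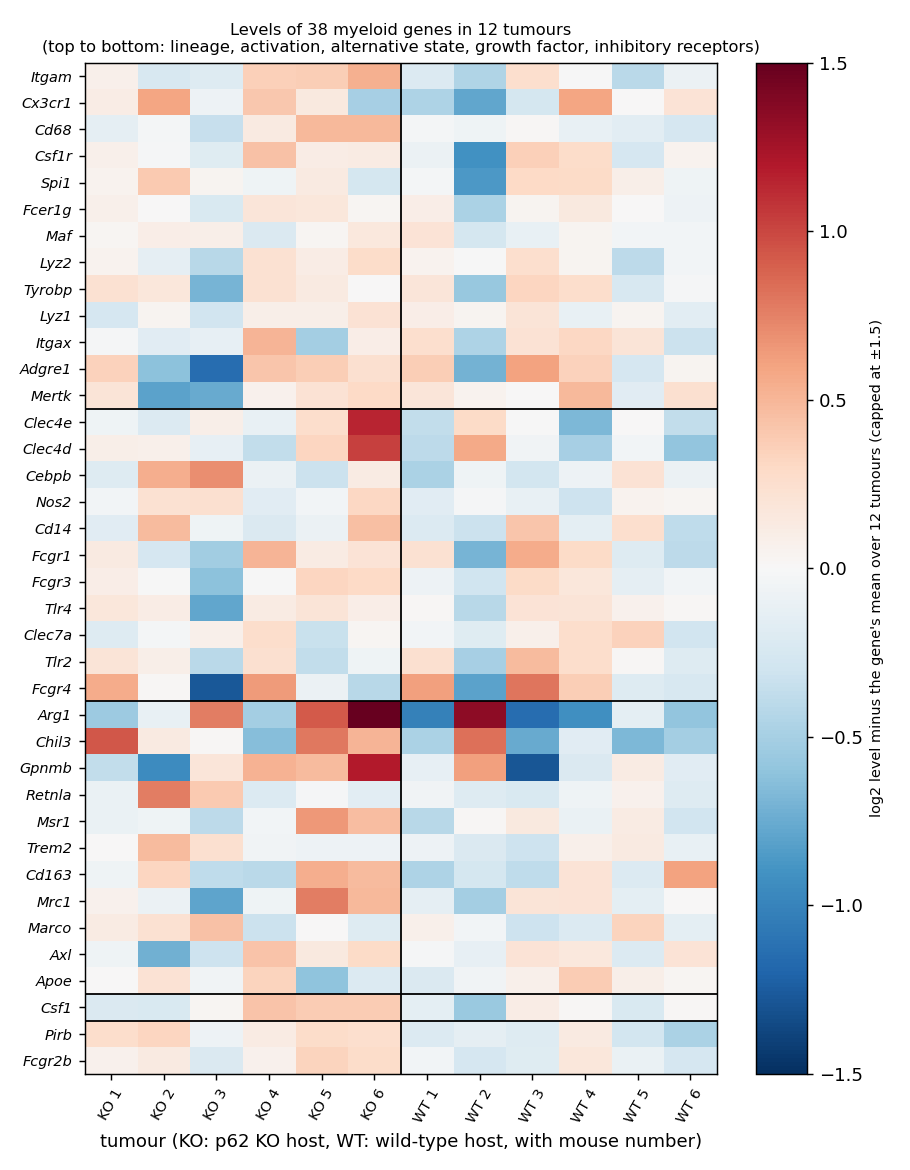
Log2 level of 38 genes minus each gene's mean over the 12 tumours, coloured from blue (below) to red (above) and capped at 1.5 in either direction, with tumours of p62 KO hosts left of the vertical line and those of wild-type hosts right of it. The lineage rows are mostly blue in wild-type host 2 and KO host 3, while Arg1, Clec4d and Clec4e are red in KO host 6 and wild-type host 2.

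**Figure D4:**
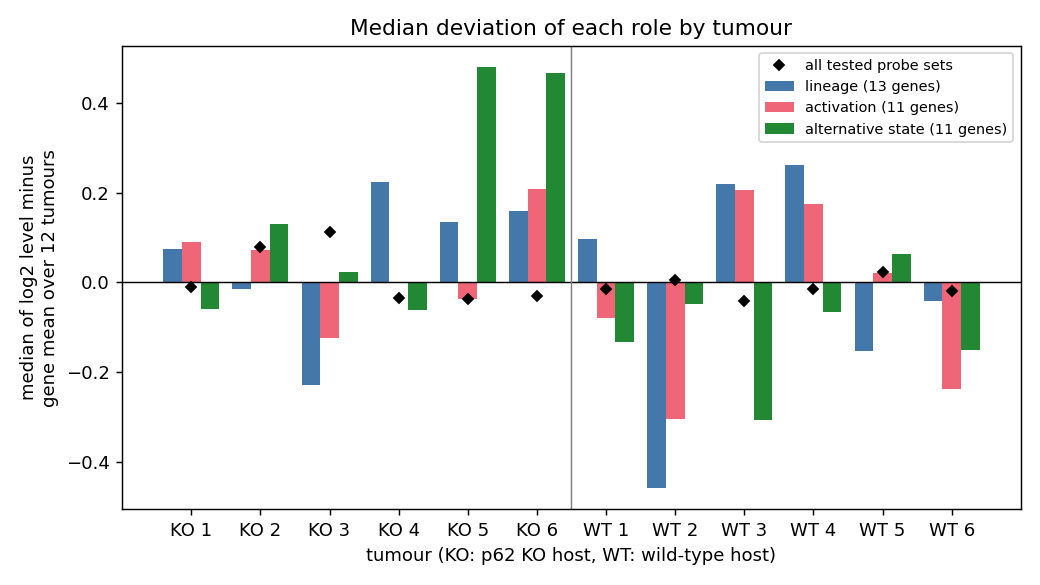
Median over the genes of a role of the log2 level minus the gene's mean over 12 tumours, as bars for each tumour, with diamonds for the median over all tested probe sets. KO hosts 5 and 6 have the highest alternative-state bars, at 0.48 and 0.47, and wild-type host 2 has the lowest lineage bar, at -0.46.

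Leaving out the 4 tumours of narrow spread, which keeps KO hosts 1, 4, 5 and 6 against wild-type hosts 1, 3, 4 and 6, gave 29 of 38 genes above 0, or 76.3%, where 47.9% of all probe sets were. At an unadjusted p under 0.05 there were then 10 of 38, or 26.3%, against 5.09% of all probe sets, and 0 of the 38 passed after adjustment (smallest adjusted p = 0.789, for Pirb), where 0.00355% of all probe sets did. All 10 were above 0. They were Arg1 at 1.37 (SE 0.47), Gpnmb at 0.91 (SE 0.33), Chil3 at 0.87 (SE 0.30), Clec4e at 0.67 (SE 0.25), Clec4d at 0.65 (SE 0.25), Pirb at 0.41 (SE 0.12), Msr1 at 0.41 (SE 0.18), Itgam at 0.35 (SE 0.12), Cd68 at 0.34 (SE 0.14) and Fcgr2b at 0.26 (SE 0.11). Adgre1, Csf1r, Tyrobp and Spi1 were not among them. Wild-type hosts 2 and 5, left out here, had the top wild-type values of Arg1, Gpnmb, Clec4d and Clec4e. Compared with omitting KO hosts 2 and 3 alone, the difference rose from 0.86 to 1.37 for Arg1 and from 0.63 to 0.91 for Gpnmb. Those of Clec4d, Clec4e, Chil3 and Msr1 also rose, whereas those of Pirb, Itgam, Cd68 and Fcgr2b fell. Such genes vary together, so that the 10 are not independent observations. The part of this omission in their count was not tested. Without KO hosts 2 and 3 alone, 32 of 38 were above 0, or 84.2% against 45.5%, and 5 had an unadjusted p under 0.05, or 13.2% against 7.72%. Moves of over 1.5 times under this omission, beside those given above, were those of Cd68 to 0.34, Tyrobp to 0.16, Fcer1g to 0.16, Maf to 0.03, Lyz2 to 0.18, Itgax to -0.0096 and Lyz1 to 0.02 among lineage genes. Among activation genes they were those of Cd14 to 0.06, Fcgr1 to 0.28, Fcgr3 to 0.20, Tlr2 to -0.05 and Tlr4 to 0.13, and among alternative-state genes those of Mrc1 to 0.38, Msr1 to 0.33, Gpnmb to 0.63 and Apoe to -0.17. This second omission keeps wild-type hosts 2 and 5, the lowest of their group in Adgre1.

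The wider myeloid pathway gave no call either. Of 8 growth factors and receptors of the CSF and stem cell factor families, 5 were above 0 with a median difference of 0.04. Il34, the second ligand of Csf1r, differed by -0.03 (SE 0.17) and the shared receptor chain Csf2rb by 0.01. Of 17 measured genes linked to receptor signalling through immunoreceptor tyrosine-based activation motifs, 14 were above 0 with a median of 0.08. These 17 include genes that oppose such signalling, namely Sirpa at 0.25, Ptpn6 at 0.07 and Inpp5d at -0.05. Trem1, a receptor that pairs with Tyrobp on neutrophils and monocytes, differed by 0.55 (SE 0.20) and Cd300lb, which does so on myeloid cells, by 0.36 (SE 0.15), without passing (adjusted p = 0.994 each). Of the 25 further macrophage genes, 19 were above 0 with a median of 0.09, and C1qa differed by 0.21 (SE 0.15). The pan-leukocyte gene Ptprc differed by -0.07 (SE 0.21).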

How the data were processed

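Per the submitters' processing notes, the authors made the deposited log2 intensities with RMA, whose version is not given. Of 34760 rows in the table, the 6568 lowest identifiers have no gene annotation and were treated as controls. This boundary was chosen after the table was seen. The other 28192 probe sets entered the tests, and 21640 of them are annotated to 1 symbol, 1321 to several and 5231 to none.

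KO and wild-type hosts were compared by a two-sided limma 3.58.1 fit (R 4.3.3) without covariates. P-values were adjusted by Benjamini-Hochberg across the tested probe sets, at a threshold of 0.05. The fit was tested on simulated data. Members, roles and lists were chosen with earlier results of these data known, and no list was tested as such. Full values are given for 11 anchor genes and for 8 genes ranked first by unadjusted p, which makes 15 since 4 are in both, plus Clec4d. The labels do not say that mouse numbers pair the tumours, and the main fit assumed no pairing. Same-numbered tumours correlated at -0.55 to 0.37 once group means were removed. These correlations cannot decide the question, since the spread of the arrays also enters them. Alternatives changed the scaling, the probe sets tested, the variance model and the block, or omitted tumours. For arrays, precision is limited by their number. Plots used matplotlib 3.10.9.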

Additional observations from a re-analysis of the deposited data

Results flagged for a closer look

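Among 76 groups of 6 values (38 genes in 2 host genotypes), 9 had 1 tumour far from the other 5. For unrelated values chance gives about 1 in 20, but these genes vary together. The share of such groups over all probe sets was not counted. KO host 3 was the highest of all tumours in 8470 and the lowest in 4757 of the 28192 probe sets. In KO host 3, Tyrobp (9.41, next 10.12), Tlr4 (6.43, next 7.31) and Fcgr3 (7.56, next 8.18) were low. KO host 4 was low in Maf, at 7.81 with the next at 8.06, and KO host 6 was high in Clec4e, at 8.20 with the next at 7.32. In wild-type host 2, Fcer1g (9.73, next 10.13), Spi1 (6.16, next 6.96) and Tlr4 (6.79, next 7.22) were low and Chil3 (5.89, next 4.90) was high.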

How the results depend on the processing

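Over the alternatives run, 0 of the 38 genes passed in any, and the adjusted p of the genes went down to 0.602 (Pirb, without KO hosts 2 and 3). Limma with trend and robust variance and the mean of all probe sets turned no gene, and the dim filter removed Chil3, Retnla and Marco. Probe sets called lower numbered 0 when all rows were tested, with the mouse number as a replicate block and without KO hosts 2 and 3, and no gene changed direction or passed under the block, where Pirb differed by 0.39. A common median left 46.4% of all probe sets above 0 and turned Fcgr3 to -0.0033 and Tyrobp to -0.014. Quantile normalization gave 5 genes with an unadjusted p under 0.05, or 13.2%, against 3.48% of all probe sets, and the cause was not tested. Without KO hosts 2 and 3 the counts were 5 such genes and 6 genes below 0, and the turned values were Adgre1 0.27, Axl 0.16, Fcgr4 0.078, Lyz1 0.017, Marco -0.049, Mertk 0.060, Retnla -0.012, Tlr4 0.13 and Sqstm1 0.053. Without wild-type hosts 2 and 5 as well there were 10 such genes, and Adgre1 was 0.0021, Axl 0.063, Lyz1 0.029, Maf -0.025, Spi1 -0.16, Tlr4 0.039, Tyrobp -0.037 and Sqstm1 0.017.

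Leaving out each tumour in turn kept the direction of 23 of the 38 genes. Genes above 0 numbered 23 to 32 and genes below 0 numbered 6 to 15, the extremes being without wild-type host 2 and without KO host 3. Genes with an unadjusted p under 0.05 numbered 1 to 4, or 2.63% to 10.5%, against 1.54% to 3.58% of all probe sets. Probe sets called lower numbered 0 to 1. The 15 genes that turned ranged as follows: Adgre1 -0.29 to 0.083, Apoe -0.18 to 0.0059, Axl -0.17 to 0.060, Clec7a -0.12 to 0.0034, Fcer1g -0.0043 to 0.14, Fcgr1 -0.061 to 0.19, Fcgr3 -0.029 to 0.16, Fcgr4 -0.37 to 0.047, Itgax -0.18 to 0.029, Lyz1 -0.086 to 0.017, Lyz2 -0.040 to 0.12, Mrc1 -0.014 to 0.30, Spi1 -0.069 to 0.16, Tlr4 -0.11 to 0.13 and Tyrobp -0.090 to 0.16. Others kept their direction but moved by over 1.5 times, namely Arg1 0.51 to 1.17, Cd14 0.049 to 0.23, Cd163 0.073 to 0.30, Cd68 0.12 to 0.29, Cebpb 0.14 to 0.34, Clec4d 0.16 to 0.48, Clec4e 0.19 to 0.47, Csf1r 0.026 to 0.28, Cx3cr1 0.10 to 0.37, Gpnmb 0.13 to 0.58, Maf 0.016 to 0.11, Marco 0.016 to 0.17, Mertk -0.35 to -0.13, Msr1 0.061 to 0.27, Retnla 0.091 to 0.29, Tlr2 -0.21 to -0.019 and Trem2 0.092 to 0.21.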
